A study of Mus musculus with 6 samples.

Results

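The STAT transcription factors Stat2, Stat3, Stat4, Stat5a and Stat6 and the feedback inhibitors Socs1, Socs2, Socs3 and Cish were examined in distal colon tissue of Gm31629-/- and WT mice. These 9 genes were taken by symbol from a table of 27546 genes, and all 9 were found in it. The table gave expression as FPKM, the number of sequenced fragments divided by gene length and by library depth. Levels were set side by side between genes and between mice on this scale, which does not adjust for a different makeup of the RNA. Results with other scalings of the libraries are given below. RNA-Seq was done on 3 Gm31629-/- mice, which lack the long noncoding RNA gene Gm31629, and on 3 WT littermates. The methods speak of pooled RNA, but each library was treated here as 1 mouse. Every mouse was of the C57BL/6 strain and 8 weeks old, had drunk water with 3% DSS (dextran sulfate sodium, which injures the colonic epithelium and brings on colitis) for 7 days, and was sacrificed on day 8. Since both genotypes received DSS and no untreated mice were part of the series, each difference is one between genotypes in injured colon. The methods describe a knockout of the locus and no restriction of it to a cell type.

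Cytokines and interferons bind paired receptor chains that carry Janus kinases (JAKs). The kinases phosphorylate STAT proteins, which pair up, enter the nucleus and bind promoters, among them the promoters of the SOCS genes, whose products then block the receptor or the kinase and so limit the signal. In the colon, STAT3 relays interleukin-6, interleukin-10, interleukin-11 and interleukin-22, STAT2 relays type I and type III interferons, STAT4 relays interleukin-12 in lymphocytes, STAT5 relays interleukin-2, interleukin-7 and growth hormone, and STAT6 relays interleukin-4 and interleukin-13. STAT activity is set by phosphorylation, which mRNA levels do not measure.

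STAT dimers bind a palindrome called GAS, searched here as TTCNNNGAA, and the STAT2 complex with IRF9, called ISGF3, binds the interferon response element, whose core was searched as GAAANNGAA. Both strands were searched in promoter windows that run from 250 bases before to 50 bases after an annotated gene start (RefSeq, GRCm38.p6). Of the 9 genes, 8 had 1 or more windows, 10 windows in all. GAS was found in 2 of these 10 windows, against 8.30% of 32851 windows of all genes, and the interferon core in 3 of 10, against 8.56%. The windows of Cish, Socs3, Socs1 and Stat2 are shown because they hold these matches in genes described below. Each is written 5′ to 3′ on the strand of its gene, with the matches in capitals. The Cish window is chr9:107296409-107296708 (plus strand), and its matches begin at base 1 and base 12 after the start. The Socs3 window is chr11:117969317-117969616 (minus strand), with a match that begins 154 bases before the start. The Cish and Socs3 windows lie inside the gene positions printed below, which come from another annotation (GENCODE). The distances therefore hold for the RefSeq starts only. In the Socs1 window, chr16:10785487-10785786 (minus strand), 2 overlapping interferon cores begin 83 and 77 bases before the start. In the Stat2 window, chr10:128270248-128270547 (plus strand), an interferon core on the opposite strand begins 221 bases before the start, and a looser STAT6-type palindrome, TTC and GAA with 4 bases between, begins 210 bases before it.
Cish: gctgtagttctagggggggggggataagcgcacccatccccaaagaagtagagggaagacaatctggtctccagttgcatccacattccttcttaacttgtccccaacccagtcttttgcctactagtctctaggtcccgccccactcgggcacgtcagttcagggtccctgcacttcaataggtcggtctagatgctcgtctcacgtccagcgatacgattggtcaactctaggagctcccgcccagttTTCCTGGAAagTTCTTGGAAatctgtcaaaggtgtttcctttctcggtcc
Socs3: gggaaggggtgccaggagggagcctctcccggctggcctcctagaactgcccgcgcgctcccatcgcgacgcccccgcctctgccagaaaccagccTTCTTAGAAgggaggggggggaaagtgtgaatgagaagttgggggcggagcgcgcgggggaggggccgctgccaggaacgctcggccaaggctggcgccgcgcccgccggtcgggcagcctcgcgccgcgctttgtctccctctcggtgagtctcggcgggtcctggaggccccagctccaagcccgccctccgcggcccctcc
Socs1: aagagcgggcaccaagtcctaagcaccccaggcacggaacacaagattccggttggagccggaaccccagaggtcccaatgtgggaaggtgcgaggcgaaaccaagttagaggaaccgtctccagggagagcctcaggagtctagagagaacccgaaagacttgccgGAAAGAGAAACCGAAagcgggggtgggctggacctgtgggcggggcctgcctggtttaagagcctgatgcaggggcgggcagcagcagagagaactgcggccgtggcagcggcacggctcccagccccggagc
Stat2: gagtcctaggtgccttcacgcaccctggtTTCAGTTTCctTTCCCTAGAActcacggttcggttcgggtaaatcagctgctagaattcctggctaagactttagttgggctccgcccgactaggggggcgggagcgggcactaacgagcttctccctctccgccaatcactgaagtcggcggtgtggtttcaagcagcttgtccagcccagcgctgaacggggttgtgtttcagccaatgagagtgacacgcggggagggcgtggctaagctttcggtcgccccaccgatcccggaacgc
Of all windows, 0.457% held 2 or more GAS matches, as that of Cish did, 0.624% held 2 or more interferon cores, as that of Socs1 did, and 6.95% held the palindrome with 4 bases between. The third window with an interferon core was the second of 2 windows of Stat4. No GAS match lay in the windows of Stat3, Stat5a or Stat6, which says only that these letters are not in those stretches. A match is a description of sequence, and binding was not measured.

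The libraries held 18002745 to 18793028 fragments by an estimate from the step size of low FPKM values, with the 3 Gm31629-/- libraries inside the range of the WT libraries, so depth hardly differed between genotypes. The WT libraries resembled each other more (correlation of log2 values 0.979 to 0.985) than the Gm31629-/- libraries did (0.915 to 0.937). The methods describe male mice, but in 5 of the 6 libraries 4 Y-linked genes were all at 0 and Xist, the RNA of the inactive X chromosome, stood at 8.35 to 13.8 FPKM. Gm31629-/- mouse 1 alone had Y-linked transcripts, with Xist at 0.00606 FPKM, so results are also given without it. The tissue itself differed. Summed FPKM of 15 colon epithelial markers was 8124 to 9668 in Gm31629-/- mice and 13194 to 14351 in WT mice, while that of 12 smooth muscle markers was 1604 to 2618 and 28.3 to 54.3. Fibroblast markers (8 genes) summed to 221 to 632 and 22.0 to 41.3, macrophage markers (10 genes) to 384 to 818 and 73.3 to 83.5, and neutrophil markers (8 genes) to 516 to 1038 and 72.2 to 130.3. In bulk tissue, a change in the share of a cell type and a change in RNA per cell cannot be told apart, and the part of these shifts in the results below was not tested. Gm31629 itself was not analysed here.

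Of the 9 genes, Cish was higher in Gm31629-/- mice and Stat6 was lower, by limma on log2(FPKM + 1) at a Benjamini-Hochberg adjusted p under 0.05. In this comparison 28.9% of the 14657 tested genes were higher and 14.6% were lower, so 1 higher and 1 lower among the 8 of these genes that passed the filter on low values is no larger a share than that of all genes in either direction. Neither gene differed by more than 1 on the log2 scale. With Gm31629-/- mouse 1 left out, 2 of the 8, Cish and Socs3, were higher and 0 were lower. The values of the groups did not overlap, with Gm31629-/- mice higher, for Stat3, Socs2 and Cish (3 of 8 tested, against 36.3% of all tested genes), and with Gm31629-/- mice lower for Stat6 (1 of 8, against 21.5%). Stat4 was below the filter and is described by its fragments. The labels number the mice but name no further batch, so p-values measure the spread between these 3 and 3 libraries.

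**Figure D1:**
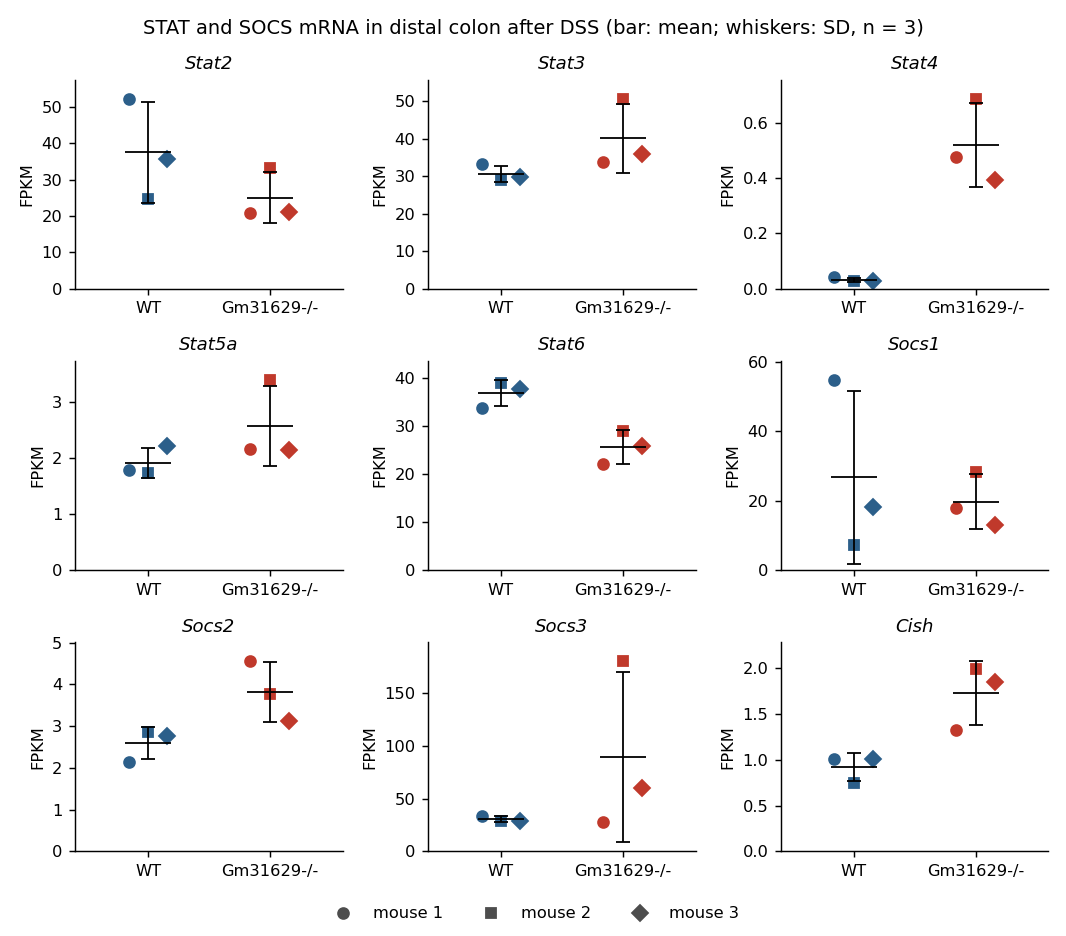
FPKM of the 9 genes in each mouse (points; the symbol gives the mouse number), with the mean (long bar) and SD (whiskers) of 3 WT (blue) and 3 Gm31629-/- mice (red); each panel has its own linear axis from 0. Cish, Socs2, Stat3 and Stat4 lie higher and Stat6 lower in all 3 Gm31629-/- mice, whereas Socs3 runs from 27.5 to 180.4 FPKM within Gm31629-/- mice and Socs1 from 7.24 to 54.7 FPKM within WT mice.

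In WT colon the genes fell into 2 tiers of mean FPKM. Stat2 (37.6), Stat6 (36.8), Stat3 (30.6), Socs3 (30.6) and Socs1 (26.7) formed the upper one, in which each gene overlapped its neighbor except that Stat6 lay above Stat3 in all mice. The lower tier held Socs2 (2.60), Stat5a (1.91), Cish (0.922) and Stat4 (0.0327), in which Socs2 and Stat5a overlapped and the others were separate. In Gm31629-/- colon Socs3 (89.5) and Stat3 (40.1) stood first and overlapped, followed, without overlap between Stat3 and Stat6, by Stat6 (25.7), Stat2 (25.1) and Socs1 (19.7). The order of the lower tier was the same as in WT. Stat6 therefore ranked above Stat3 in each WT mouse and below the lowest Stat3 value in each Gm31629-/- mouse.

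Stat6, the factor of interleukin-4 and interleukin-13 signaling (ENSMUSG00000002147, chr10:127642986-127660957, plus strand), measured 22.1, 29.1 and 25.9 FPKM in Gm31629-/- mice 1 to 3 and 33.8, 39.0 and 37.8 in WT mice 1 to 3. All 3 Gm31629-/- values lay under the lowest WT value. The means were 25.7 ± 3.49 and 36.8 ± 2.73 (SD, n = 3 each), and the log2 fold change was -0.51 (SE 0.15, 95% interval -0.87 to -0.16, limma adjusted p = 0.0303). The call was lost when any mouse other than Gm31629-/- mouse 2 was left out (adjusted p up to 0.104), and it was -0.41 (adjusted p = 0.0679) without Gm31629-/- mouse 1. When libraries were scaled to their epithelial markers, which were themselves lower in Gm31629-/- mice, the direction turned to 0.18 (adjusted p = 0.432). The 3 tested genes whose pattern over the 6 libraries lay nearest to that of Stat6 were Cmip, Diaph1 and Flii, at Euclidean distances of 0.0878, 0.0996 and 0.109 between centered log2(FPKM + 1) values, where the median tested gene lay at 1.14.

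The lower Stat6 mRNA stood beside a list of its ligands and receptors in which no gene was lower. Of 4 tested genes of 5 listed, 2 were higher: Il4, one of the ligands, at 0.929 ± 0.345 against 0.223 ± 0.159 FPKM (log2 fold change 0.65, limma adjusted p = 0.0318, lost without WT mouse 1 or 3), and Il13ra2, the decoy receptor for interleukin-13, at 1.59 ± 0.533 against 0.0160 ± 0.0139 FPKM (log2 fold change 1.33, adjusted p = 0.00191). Both passed the filter on low values only through the Gm31629-/- group, so the count is no support for a change of the list, and without Gm31629-/- mouse 1 or 2 Il4 was not tested. With no filter the adjusted p was 0.0444 for Il4 and 0.00551 for Il13ra2. Among 14 tested STAT6 target genes 7 were higher (5 of them with a WT mean under 0.5 FPKM) and 1 was lower, with a median log2 fold change of 0.93, where all tested genes had a median of 0.15. Of all tested genes 28.9% were higher and 14.6% lower. The eosinophil attractant Ccl11 rose from 0.543 ± 0.641 to 33.3 ± 15.9 FPKM (log2 fold change 4.43, adjusted p = 0.000548) and the macrophage chitinase-like gene Chil3 from 0.443 ± 0.187 to 15.2 ± 9.75 FPKM (3.24, adjusted p = 0.00339). The goblet cell gene Retnlb fell from 549 ± 257 to 192 ± 41.7 FPKM (-1.44, adjusted p = 0.0116). In the same tissue 8 of 8 fibroblast, 9 of 10 macrophage and 8 of 8 neutrophil markers were higher, and 8 of 15 epithelial markers were lower and 0 higher. Whether these shifts bear on Ccl11, Chil3 or Retnlb was not tested.

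Cish, an inhibitor that is induced by STAT5 and acts on receptors that use STAT5 (ENSMUSG00000032578, chr9:107296026-107302784, plus strand), measured 1.33, 1.99 and 1.85 FPKM in Gm31629-/- mice and 1.01, 0.744 and 1.01 in WT mice. It was higher in all 3 Gm31629-/- mice than in any WT mouse. The ratio of means was 1.87 (1.72 ± 0.349 against 0.922 ± 0.154 FPKM, SD, n = 3 each), with a log2 fold change of 0.50 on the log2(FPKM + 1) scale, which understates the change of a low gene (SE 0.17, 95% interval 0.10 to 0.90, limma adjusted p = 0.0485). The call was close to the threshold: of 6 fits with 1 mouse left out only that without Gm31629-/- mouse 1 kept it (0.61, adjusted p = 0.0264), and the adjusted p reached 0.145 in the others. In every alternative in which Cish was tested, which leaves out the filter at a mean of 5 FPKM, the change was positive, from 0.35 with libraries scaled by median ratios (adjusted p = 0.112) to 0.89 with epithelial scaling (adjusted p = 0.00719). The genes nearest to Cish in pattern were Srp14, B3galnt2 and Zfp719, at distances of 0.0879, 0.128 and 0.166, with a median of 1.07 for all tested genes.

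Stat5a, which relays growth hormone and lymphocyte cytokines (ENSMUSG00000004043, chr11:100859351-100885169, plus strand), measured 2.17, 3.40 and 2.14 FPKM in Gm31629-/- mice and 1.79, 1.74 and 2.22 in WT mice. Only Gm31629-/- mouse 2 exceeded the WT range. The log2 fold change was 0.28 (SE 0.19, 95% interval -0.17 to 0.73, limma adjusted p = 0.270). Socs2, an inhibitor of growth hormone signaling that STAT5 induces (ENSMUSG00000020027, chr10:95385362-95417180, minus strand), measured 4.55, 3.76 and 3.11 FPKM in Gm31629-/- mice and 2.15, 2.87 and 2.77 in WT mice. Its groups did not overlap, but the log2 fold change of 0.41 did not pass (SE 0.18, 95% interval -0.012 to 0.84, limma adjusted p = 0.103). Gm31629-/- mouse 1, in which Cish was lowest of its group, had the highest Socs2 value. When each inhibitor was expressed as a log2 ratio to Stat5a within the same mouse, Cish over Stat5a differed by 0.22 between genotypes (exact permutation test, two-sided, p = 0.2) and Socs2 over Stat5a by 0.13 (exact p = 0.7), and the latter turned to -0.051 without Gm31629-/- mouse 1. With 3 against 3 mice the exact test cannot go below 0.1.

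STAT5 ligands and receptors included 11 tested genes of 18 in the table, of which 6 were higher (2 with a WT mean under 0.5 FPKM) and 0 lower. Among all tested genes 28.9% were higher. Csf2rb, the shared receptor chain of interleukin-3, interleukin-5 and GM-CSF, rose from 1.37 ± 0.221 to 16.7 ± 10.6 FPKM (log2 fold change 2.73, limma adjusted p = 0.00242), and Il7r, the interleukin-7 receptor of lymphocytes, from 0.0795 ± 0.0549 to 2.31 ± 0.715 FPKM (1.59, adjusted p = 0.0013). Of 7 tested STAT5 target genes 5 were higher (3 with a WT mean under 0.5 FPKM) and 0 lower, with a median log2 fold change of 0.86. Among them the growth factor Igf1 rose from 0.0661 ± 0.0397 to 2.23 ± 0.784 FPKM (1.57, adjusted p = 0.00138) and the cytokine Osm from 0.364 ± 0.148 to 3.49 ± 2.99 FPKM (1.53, adjusted p = 0.0213). The count of higher STAT5 targets dropped to 1 when WT mouse 1 or 3 was left out and to 3 when mouse 2 of either genotype was, and leaving out any one WT mouse lost the call of Osm. With no filter on low values the call of Osm was also lost (limma adjusted p = 0.0501), while that of Igf1 held (adjusted p = 0.00545). Markers of T and natural killer cells, in which STAT5 relays interleukin-2, summed to 18.2 to 29.6 FPKM in Gm31629-/- and 7.33 to 10.9 FPKM in WT mice, with 6 of 9 tested markers higher, a count that was 3 when any mouse other than Gm31629-/- mouse 3 was left out.

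**Figure D2:**
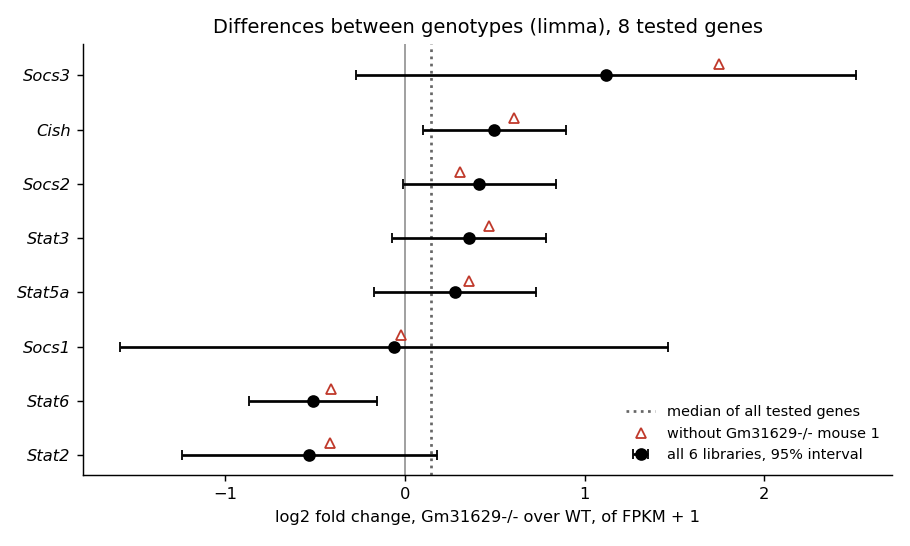
Log2 fold change of FPKM + 1, Gm31629-/- over WT, for the 8 tested genes from limma (black points, with 95% intervals as bars; 6 libraries), and the same without Gm31629-/- mouse 1 (red triangles); the dotted line is the median of all tested genes, 0.15. The intervals of Cish and Stat6 exclude 0, though Stat6 turns to 0.18 when libraries are scaled to epithelial markers, and those of Socs3 and Socs1 are the widest.

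Stat3 (ENSMUSG00000004040, chr11:100885098-100939540, minus strand), which relays the interleukin-6 family and interleukin-22 in epithelial repair, measured 33.8, 50.6 and 35.9 FPKM in Gm31629-/- mice and 33.1, 29.0 and 29.9 in WT mice. The groups did not overlap, but Gm31629-/- mouse 1 lay next to the highest WT mouse. The log2 fold change was 0.36 and did not pass the test (SE 0.18, 95% interval -0.069 to 0.79, limma adjusted p = 0.148). Stat3 and Stat5a lie on opposite strands and share 72 bases at their 3′ ends, and whether the authors counted by strand is not given, so fragments there cannot be assigned between them. Scaled to epithelial markers, Stat3 was higher by 1.05 (adjusted p = 0.00539) and Stat5a by 0.77 (adjusted p = 0.0256), on a scale that moved the median of all tested genes to 0.70.

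Socs3, the inhibitor that STAT3 induces and that blocks the interleukin-6 receptor chain and the G-CSF receptor (ENSMUSG00000053113, chr11:117966079-117970047, minus strand), varied most among Gm31629-/- mice. It measured 27.5, 180.4 and 60.6 FPKM in Gm31629-/- mice 1 to 3 and 34.0, 28.7 and 29.0 in WT mice 1 to 3. Mice 2 and 3 lay above all WT mice, and mouse 1 lay below all of them. The means of 89.5 ± 80.4 and 30.6 ± 2.96 FPKM (SD, n = 3 each) gave a log2 fold change of 1.12 that did not pass (SE 0.59, 95% interval -0.27 to 2.51, limma adjusted p = 0.163). Single mice moved this value in either direction: without Gm31629-/- mouse 1 it was 1.75 (adjusted p = 0.0184), and without Gm31629-/- mouse 2 it was 0.41. As a log2 ratio to Stat3 in the same mouse, Socs3 stood at -0.29, 1.81 and 0.74 in Gm31629-/- mice and at 0.036, -0.014 and -0.039 in WT mice. The WT ratios lay close together and those of Gm31629-/- mice lay on both sides of them, and the difference of 0.76 was not past the spread (exact permutation test, two-sided, p = 0.4, and 0.6 after adjustment over 3 ratios).

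Of 10 tested ligands that signal through STAT3, 6 were higher and 0 lower (median log2 fold change 1.49). All 6 had a WT mean under 0.5 FPKM and so were tested only because they were high in Gm31629-/- mice, and the count is no support for a change of the list. Csf3, which encodes G-CSF, measured 4.62, 17.6 and 7.36 FPKM in Gm31629-/- mice and 0.230, 0.354 and 0.226 in WT mice (log2 fold change 2.91, limma adjusted p = 0.00185), and Il6 measured 0.470, 4.53 and 2.65 and 0.0668, 0.0915 and 0.0438 (1.54, adjusted p = 0.0277). Both were lowest in mouse 1 of the Gm31629-/- group and highest in mouse 2, as Socs3 was. Without Gm31629-/- mouse 1, 8 ligands were higher, and without any one of the other mice 3 or 4 were, with the call of Il6 lost each time. With no filter on low values the call of Il6 was lost as well (limma adjusted p = 0.0596), while that of Csf3 held (adjusted p = 0.0074). The ligands Il11 and Il22, named after their values were seen, did not pass but showed the same spread: Il11 measured 0.675, 54.9 and 34.6 FPKM in Gm31629-/- mice and 1.61, 4.11 and 2.70 in WT mice, and Il22 measured 0.0490, 16.9 and 2.11 and 0.390, 0.05 and 0.0959. In Gm31629-/- mouse 1 Il11 was below all WT values (26 fragments) and Il22 was at 1 fragment, as in WT mouse 2, and in mice 2 and 3 both were above all WT values.

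Of 12 receptor genes of STAT3 signaling 10 were higher, 4 of them with a WT mean under 0.5 FPKM, and 0 lower (median 1.69). Among all tested genes 28.9% were higher. Whichever mouse was left out, 9 or 10 of the receptor genes were higher. Il10ra, the ligand-binding chain for interleukin-10 on leukocytes, rose from 0.779 ± 0.134 to 9.37 ± 4.21 FPKM (log2 fold change 2.47, limma adjusted p = 0.000845), and Il6st, the gp130 chain shared by the interleukin-6 family and bound by SOCS3, from 4.61 ± 0.356 to 26.3 ± 12.7 FPKM (2.19, adjusted p = 0.00173). The remaining 2 were Il22ra1 and Il10rb, named after their values were seen. They measured 22.8 ± 6.17 against 27.2 ± 5.09 FPKM and 15.3 ± 1.25 against 14.9 ± 2.17 FPKM (limma adjusted p = 0.393 and 0.838).

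Among 18 STAT3 target genes 9 were higher and 4 lower, with a median log2 fold change of 0.93. Of all tested genes 28.9% were higher and 14.6% lower. The acute-phase gene Hp rose from 4.25 ± 1.54 to 76.7 ± 34.8 FPKM (3.80, limma adjusted p = 0.00076) and the protease inhibitor Timp1 from 1.32 ± 1.01 to 29.4 ± 14.2 FPKM (3.71, adjusted p = 0.00076). The epithelial antimicrobial lectins went the other way, Reg3b from 5254 ± 1287 to 34.1 ± 28.2 FPKM (-8.07, adjusted p = 0.00161) and Reg3g from 704 ± 113 to 4.76 ± 5.92 FPKM (-7.42, adjusted p = 0.00036). Reg3b in Gm31629-/- mice was 48.1, 1.71 and 52.5 FPKM, lowest in mouse 2, where Socs3, Il6 and Il22 were highest. This was seen after the fact for 1 gene in 1 library, and a link was not tested. The log2 fold change of Reg3g was -8.23, -6.93 and -7.09 without Gm31629-/- mouse 1, 2 and 3, so mouse 2 stood out less for it.

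Socs1, the inhibitor of interferon receptors and JAKs (ENSMUSG00000038037, chr16:10782240-10785536, minus strand), measured 17.8, 28.3 and 13.0 FPKM in Gm31629-/- mice and 54.7, 7.24 and 18.1 in WT mice. Here the WT mice spread widest, and the Gm31629-/- values lay inside their range. The log2 fold change was -0.059 (SE 0.65, 95% interval -1.58 to 1.47, limma adjusted p = 0.948), and leaving out 1 mouse moved it between -0.72 and 0.66, on both sides of 0. Stat2, the STAT of the interferon complex ISGF3 (ENSMUSG00000040033, chr10:128270559-128292849, plus strand), measured 20.9, 33.3 and 21.2 FPKM in Gm31629-/- mice and 52.3, 24.6 and 35.8 in WT mice. The groups overlapped, and WT mouse 1 was highest for Stat2 as it was for Socs1. The log2 fold change of Stat2 was -0.53 (SE 0.30, 95% interval -1.24 to 0.18, adjusted p = 0.190), and scaled to epithelial markers it was 0.16.

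Most of the listed interferon-induced genes had the order of Socs1 and Stat2 among WT mice. Both Socs1 and Stat2 were highest in WT mouse 1 and lowest in WT mouse 2, and 10 of 14 ISGF3 target genes had that order of the 3 WT mice, against 14.0% of all tested genes. WT mouse 1 had the highest value of all 6 libraries for 12 of the 14, against 8.83% of tested genes. This pattern was looked for after the values were seen and is given as a description. Between genotypes 12 of the 14 had a negative log2 fold change (median -0.49), of which 2 were lower by the test, near the 14.6% of all tested genes: the antiviral enzyme gene Oas1a, at 71.3 ± 12.5 against 138.8 ± 40.7 FPKM (-0.92, limma adjusted p = 0.021), and the antiviral GTPase gene Mx2, at 1.70 ± 0.581 against 4.16 ± 1.86 FPKM (-0.90, adjusted p = 0.0378). Leaving out Gm31629-/- mouse 1, WT mouse 1 or WT mouse 3 lost both calls, as did epithelial scaling. Of 6 tested interferon ligand, receptor and ISGF3 partner genes 2 were higher, near the 28.9% of all tested genes, and 0 were lower. They were the receptor chains Ifnar2 (8.36 ± 4.0 against 1.99 ± 0.493 FPKM, log2 fold change 1.57, adjusted p = 0.00754) and Ifngr1 (161 ± 17.8 against 114 ± 14.1 FPKM, 0.49, adjusted p = 0.0405). The call of Ifngr1 was lost in 5 of 6 fits with 1 mouse left out, which left 1 higher gene in the list.

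**Figure D3:**
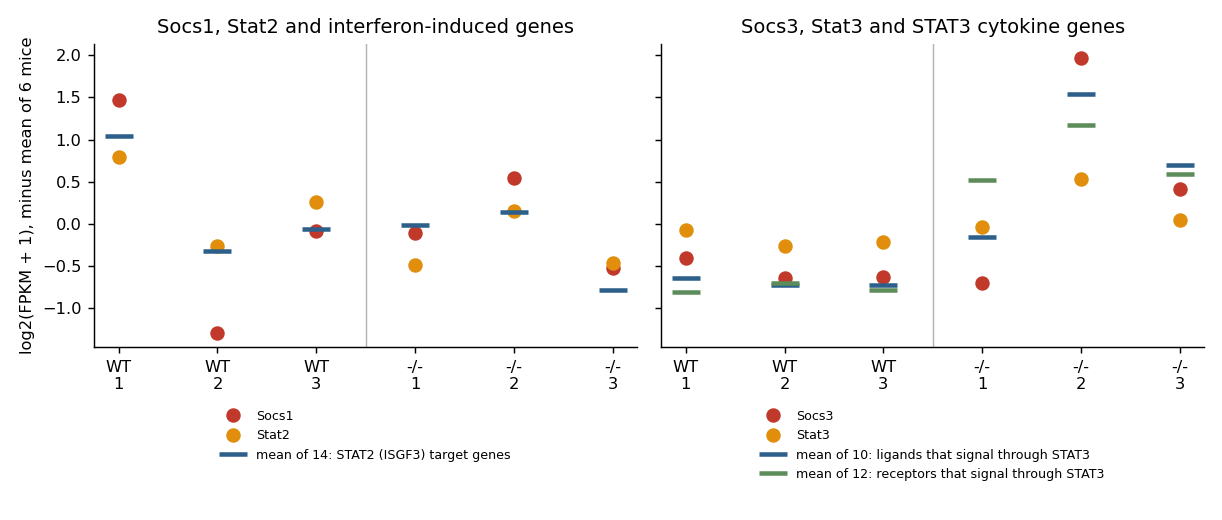
Log2(FPKM + 1) in each of the 6 mice minus the mean over them, for Socs1, Stat2 (circles) and the mean of 14 ISGF3 target genes (dash) on the left, and for Socs3, Stat3 (circles) and the means of 10 STAT3 ligands and 12 STAT3 receptors (dashes) on the right. WT mouse 1 stands highest on the left, and Gm31629-/- mouse 2 stands highest on the right, where WT mice lie close together. On the right, 7 ligands and 4 receptors had a WT mean under 0.5 FPKM and were tested through the Gm31629-/- group.

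Among Gm31629-/- mice, Socs3 and Stat3 were highest in mouse 2 and lowest in mouse 1. The same order held for 7 of 10 STAT3 ligands, 5 of 12 receptors and 9 of 18 targets, against 22.9% of all tested genes. It also held for 7 of 8 fibroblast, 5 of 10 macrophage and 2 of 8 neutrophil markers. Gm31629-/- mouse 2 had the highest value of the 6 libraries for 9 of 10 ligands, 8 of 12 receptors and 12 of 18 targets, against 28.9% of tested genes. However, 7 of the ligands, 4 of the receptors and 0 of the targets had a WT mean under 0.5 FPKM and passed the filter through the Gm31629-/- group. For those genes a highest value in that group was largely set in advance, so the share of all tested genes is no fair measure. The counts of order and of highest values were also made after the values were seen, and what the mice differed in was not tested.

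Stat4, the factor of interleukin-12 signaling in T helper 1 and natural killer cells (ENSMUSG00000062939, chr1:51987148-52107189, plus strand), was the scarcest of the 9 genes, and with a mean of under 0.5 FPKM it was not tested in the main comparison. It measured 0.477, 0.686 and 0.394 FPKM in Gm31629-/- mice and 0.0419, 0.0287 and 0.0275 in WT mice. These values rest on 34, 49 and 28 fragments in Gm31629-/- mice and on 3, 2 and 2 in WT mice. Every Gm31629-/- mouse stood above every WT mouse, with 111 fragments against 7, a ratio of 15.9 with an exact 95% interval of 7.45 to 40.4 that covers counting error only. The exact permutation p was 0.1, the smallest that 3 against 3 mice can give. With no filter on low values, limma gave a log2 fold change of 0.55 (SE 0.083, adjusted p = 0.00774). The pseudocount of 1 shrinks both the change and the spread of values this low (SD of the WT log2 values 0.011). Of 6 genes for its ligands and receptors only 1 was abundant enough to test, and it did not pass. Of 3 tested STAT4 target genes 2 were higher: the homeobox gene Hlx at 17.4 ± 8.15 against 0.423 ± 0.141 FPKM (log2 fold change 3.60, adjusted p = 0.000374), which is also expressed in gut mesenchyme, and Il18rap, a chain of the interleukin-18 receptor, at 0.903 ± 0.324 against 0.148 ± 0.0485 FPKM (0.72, adjusted p = 0.0141, lost without WT mouse 3). All 3 tested targets had a WT mean under 0.5 FPKM and so were tested only through the Gm31629-/- group. The count is therefore no support for a change of the list. Among all tested genes 28.9% were higher. Il18rap fell below the filter without Gm31629-/- mouse 1 or 2 and with median ratios. With no filter its adjusted p was 0.0176. The T cell marker Cd4, named after its values were seen, measured 4.01 ± 1.12 and 0.515 ± 0.0883 FPKM. Of 9 tested T and natural killer cell markers 6 were higher and 3 did not pass, with a median log2 fold change of 0.74.

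Kinases and other brakes of the pathway were set beside these genes. Of 4 Janus kinases, Jak2 (21.2 ± 3.47 against 9.77 ± 2.48 FPKM, log2 fold change 1.06, limma adjusted p = 0.00854) and Jak1 (28.9 ± 4.30 against 19.2 ± 1.72 FPKM, 0.56, adjusted p = 0.0245) were higher, and Tyk2, the kinase of the interferon and interleukin-12 receptors, was lower (6.59 ± 1.6 against 11.4 ± 1.30 FPKM, -0.73, adjusted p = 0.0205). With libraries scaled by median ratios the call of Jak1 was lost (0.31), and with epithelial scaling that of Tyk2 (-0.090). The call of Jak1 was also lost without Gm31629-/- mouse 2 or any one WT mouse (adjusted p 0.0524 to 0.0994), and that of Tyk2 without Gm31629-/- mouse 3, WT mouse 2 or WT mouse 3 (0.0537 to 0.0748). Of 6 other STAT and SOCS family genes 2 were higher and 0 lower, and of 8 other brakes 3 were higher and 0 lower, shares near the 28.9% of all tested genes. The family genes that were higher were Socs5 at 6.71 ± 1.59 against 1.91 ± 0.0763 FPKM (1.38, adjusted p = 0.00182) and Socs4 at 4.78 ± 1.41 against 1.91 ± 0.30 FPKM (0.97, adjusted p = 0.0106). The brakes that were higher included the phosphatase genes Ptpn2 (11.8 ± 3.37 against 4.45 ± 1.03 FPKM, 1.22, adjusted p = 0.00706) and Ptpn6, which is abundant in leukocytes (16.8 ± 1.81 against 10.7 ± 1.25 FPKM, 0.61, adjusted p = 0.0169). Without WT mouse 1 only 1 of the 8 was higher.

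**Figure D4:**
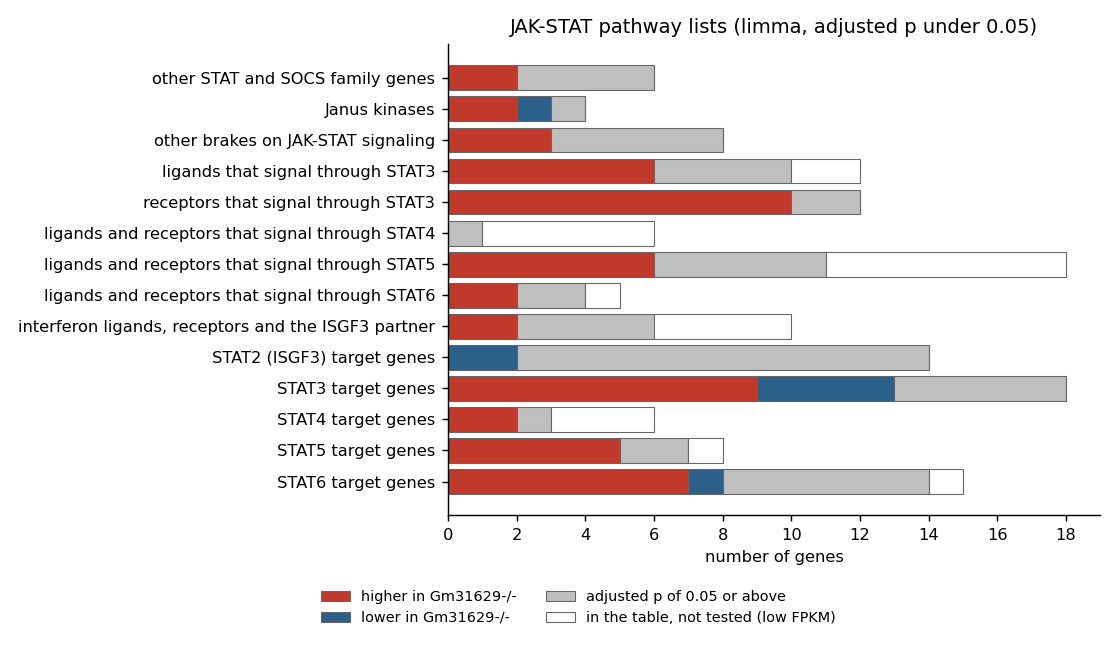
Number of genes in each JAK-STAT list with higher (red) or lower (blue) expression in Gm31629-/- mice by limma (adjusted p under 0.05), that did not pass (gray), or that were too low in FPKM to test (white). Receptors of STAT3 signaling have the highest share called, 10 of 12, against 28.9% of all tested genes that were higher. Of these 10, 4 had a WT mean under 0.5 FPKM and were tested through the Gm31629-/- group. Lower were 2 of 14 ISGF3 targets, near the 14.6% of all tested genes.

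Over all pathway lists, 54 of 114 tested genes were higher, of which 22 had a WT mean under 0.5 FPKM and passed the filter through the Gm31629-/- group, and 8 were lower, with a median log2 fold change of 0.65, where all tested genes had a median of 0.15 and calls in 28.9% and 14.6%. The STAT factors had a median of -0.12 (4 tested) and the SOCS inhibitors one of 0.46 (4 tested). Set against the median of all tested genes in the same fit, the main value was -0.66 for Stat6, and it ranged from -0.72 to -0.43 over all alternatives. The same relative value was 0.35 for Cish (0.19 to 0.70), 0.97 for Socs3 (0.30 to 1.64), 0.27 for Socs2 (0.17 to 0.36) and 0.21 for Stat3 (0.073 to 0.44). On this relative scale Stat6 and Stat2 were below and Cish, Socs2, Socs3, Stat3 and Stat5a above the median gene in each fit, and Socs1 lay on either side. Scaling multiplies each library by 1 factor, and subtracting the median removes most of it, so agreement between the scalings was largely set in advance. Without that subtraction Stat6 and Stat2 turned positive with epithelial scaling (0.18 and 0.16).

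**Figure D5:**
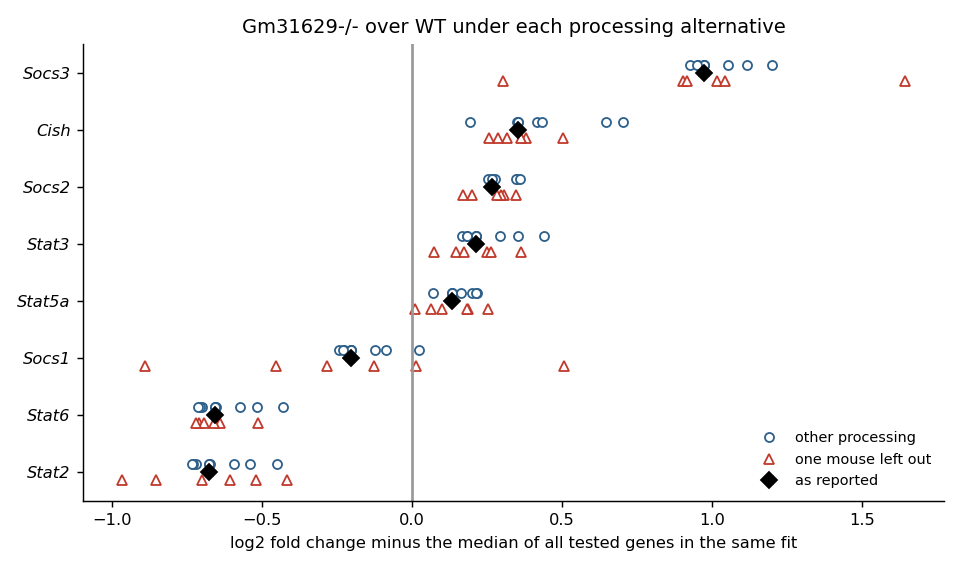
Log2 fold change of the 8 tested genes, Gm31629-/- over WT, minus the median of all tested genes in the same fit, as reported (black diamonds), with other processing (blue circles) and with 1 mouse left out (red triangles). Stat6 and Stat2 lie left of 0 in each fit on this relative scale (unadjusted, both turn positive with epithelial scaling, 0.18 and 0.16), and Socs1 crosses 0.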

How the data were processed

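RNA was taken from distal colon of 3 Gm31629-/- and 3 WT mice. FPKM values of 27546 genes, as the authors deposited them, came in 1 table with a column per library. The methods speak of pooled RNA, but the columns were treated as separate mice. The submitters' processing notes name HISAT2 2.1.0, HTSeq 0.6.0 and GRCm38, and the annotation is not given in the sources used here. GENCODE M21 (GRCm38) gave symbols, positions and exon lengths for 27488 genes. Depth was recovered from the step between low FPKM values: 96.3% to 97.2% of those up to 20 fragments lay within 0.1 of a whole fragment, so fragments are estimates. A value of 0 means that no fragment was counted, and it was read as allowing an expected count of up to 3 fragments.

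Genes with a mean of at least 0.5 FPKM were compared with limma 3.58.1 in R 4.3.3, using its trended eBayes on log2(FPKM + 1) values, and p-values were adjusted by Benjamini-Hochberg over 14657 genes. The pseudocount of 1 shrinks the change of low genes. The study compared counts with DEGseq, which was not repeated. The script was tested on simulated data. Ratios were compared by exact permutation tests (scipy 1.17.1), and figures were drawn with matplotlib 3.10.9. No library repeated another, since within each group the chi-square per gene was 29.4 to 131.

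The genes, lists and tests were chosen with earlier results of these data known, and the pathway and marker lists were written from textbook knowledge. Named genes were the 9 described, the 2 highest and 2 lowest called genes of each pathway list by log2 fold change, and the 3 genes nearest in pattern to each called member. Alternatives varied the pseudocount (0.1), the filter (none, or a mean of at least 5 FPKM), the scaling (TPM scale, median ratio, epithelial markers), the eBayes trend, the replicate block, the mice (each left out), the tool (voom on recovered fragments) and the fold change threshold. Of 138 pathway genes listed, Il3 and Chil4 were not analysed here.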

Additional observations from a re-analysis of the deposited data

How the results depend on the processing

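The 1 higher call among the 9 genes, Cish, became 0 on the TPM scale (adjusted p = 0.0537), with median ratios and with the replicate block, and became 5 with epithelial scaling. With no filter on low values Cish did not pass (limma adjusted p = 0.101), and the 1 higher call was Stat4 (adjusted p = 0.00774). With a mean of at least 5 FPKM Cish was not tested, and 0 of the 5 tested were higher. The 1 lower call, Stat6, became 0 with epithelial scaling, where it reversed to 0.18. Adding a log2 fold change of 1 to either an adjusted or an unadjusted p left 0 higher and 0 lower. With 1 mouse left out, 0 to 2 were higher and 0 to 1 lower. The 54 higher pathway genes became 25 of 69 tested with a mean of at least 5 FPKM, and the 8 lower became 3 with epithelial scaling and 5 with the fold change and adjusted p. With 1 mouse left out, 37 to 57 were higher and 4 to 9 lower, the fewest without WT mouse 3. The ratio of Socs3 to Stat3 ranged from 0.23 to 1.28 with 1 mouse left out, that of Cish to Stat5a from 0.10 to 0.31, and that of Socs2 to Stat5a from -0.051 (reversed, without Gm31629-/- mouse 1) to 0.30. The cause of these shifts was not tested, save that a higher filter tests fewer genes. Replicate numbers did not pair the mice (correlations of deviations 0.036, -0.108 and 0.014), and with the replicate block 0 of the 9 genes were higher and 1 lower, Cish had an adjusted p of 0.105, and 51 pathway genes were higher and 6 lower, with the calls of Oas1a, Mx2 and Ifngr1 lost. Over all genes 4238 were higher and 2138 lower (66.5% higher), against 1405 and 1525 with a mean of at least 5 FPKM (48.0%), 3516 and 3635 with median ratios (49.2%), 8270 and 417 with epithelial scaling (95.2%), and 2704 and 680 with the fold change and adjusted p (79.9%) or 2791 and 718 with the unadjusted p (79.5%). Without WT mouse 1 the lower genes were 1261, and without WT mouse 3 they were 978. The median of all tested genes was 0.15, -0.063 with median ratios, -0.081 with a mean of at least 5 FPKM and 0.70 with epithelial scaling. Depth limits Stat4 most, at 2 or 3 fragments per WT library.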
